A study of Mus musculus with 8 samples.

Results

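The interferon-stimulated genes described here were a fixed list of 39 mouse genes that cells switch on in response to interferon, comprising 4 transcription factors, 9 sensors of foreign nucleic acid, 20 antiviral effectors and 6 genes of ubiquitin-like or ADP-ribose modification. Their open chromatin was followed in MPP3 and MPP4 cells. A peak belonged to a gene when its centre fell within the gene body, less than 20 kb before its start or within 10 kb past its end, provided that no other annotated gene was closer. Closeness was measured from the peak centre to the start, middle or end of a transcript, whichever was nearest. A peak inside a listed gene could therefore go to another gene. By this rule 95 of 87642 peaks in MPP3 cells and 87 of 86952 peaks in MPP4 cells were assigned to the 39 genes. All positions are of mouse build mm10 (GRCm38), with GENCODE vM21 gene models.

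Type I interferons bind the IFNAR1-IFNAR2 receptor, and the kinases JAK1 and TYK2 then signal to a complex called ISGF3, which contains STAT2 and IRF9 and binds the interferon-stimulated response element (ISRE) in the promoters of target genes. Type II interferon acts at a different element, the gamma-activated sequence (GAS). IRF1 and IRF7 are themselves targets of the pathway and bind ISRE-like sequences. Many blood stem and progenitor cells keep some of these genes on without infection, and interferon drives such cells into cycle.

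MPP3 and MPP4 cells are multipotent progenitors of mouse bone marrow, biased towards the myeloid and the lymphoid lineages respectively. The assay for transposase-accessible chromatin (ATAC-seq) was run on 8 libraries, 2 each of MPP3 WT, MPP3 Ebf1-KO, MPP4 WT and MPP4 Ebf1-KO, from C57BL/6 mice 8 to 9 weeks old. EBF1 is a transcription factor that specifies B cells. Per the labels, mice of both genotypes were Ebf1 fl/fl, and the Ebf1-KO mice in addition carried a Tie2Cre allele, in which the Tie2 (Tek) promoter drives Cre in endothelial and blood-forming cells. The series' own design text instead names the WT mice as Tie2Cre with wild-type Ebf1, and the files used here do not settle which holds. The MPP4 WT mice were 9 weeks old and the MPP4 Ebf1-KO mice 8 weeks, so age and genotype cannot be told apart in MPP4 cells, and 1 of the MPP4 WT mice was male while the other mice were female. From each mouse 5000 cells were sorted as lineage-negative, Sca1+ and Kit+, CD150- and CD48+, with Flt3+ added for MPP4.

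Each peak has a level, which is the mean log2 CPM (reads scaled to a common library total) over the 4 libraries of a cell type, both genotypes together, as the authors deposited it. One value per peak exists for each cell type, so no level has a spread between mice, and no test between genotypes or cell types was made. Because wide peaks collect more reads, levels below are given per kb of peak (log2 CPM minus log2 of the length in kb) unless stated otherwise. The MPP3 and MPP4 tables were normalized separately, so each level set across them rests on that scaling. The number of reads behind a peak is not known here, and levels near the bottom of a table are the least certain. Peaks were identified on merged libraries, so the presence of a peak cannot be tied to a mouse or to a genotype.

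The labelled cell types were checked against defining genes at their transcript starts. Percentiles are among the start peaks of all protein-coding genes. Flt3 stood at the 89.5th percentile in MPP3 and the 98.1st in MPP4, Kit at the 81.2nd and 88.3rd, and Cd34 at the 73.7th and 79.8th. Cd48, which the gate selects, was low (10.3rd and 13.8th), and Ly6a, the gene of Sca1, had no start peak in MPP3 and a weak one, at 3.82 log2 CPM per kb, in MPP4. Of 8 genes of the depleted lineages, 4 had a start peak in each cell type, between the 2.5th and 26.3rd percentile in MPP3 and between the 1.6th and 35.6th in MPP4, with Itgam the highest. Cd3e and Ly6g had none in either. The stem cell gene Slamf1 lay at the 7.2nd and 12.4th percentiles. The part of other cells in the levels below was not tested.

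Promoters with interferon elements are shown first as examples of the letters that the motif search counted. The lines give the 150 bases just upstream of the annotated start on the gene's strand, 5′ to 3′, read from the RefSeq GRCm38 genome. Capitals mark the ISRE core, GAAANNGAAA on either strand, or for Irf1 the GAS, TTCNNNGAA. Isg15 (chr4:156200819-156200968, minus strand) encodes a ubiquitin-like protein that is conjugated to others in infected cells. Rtp4 (chr16:23609769-23609918, plus strand) encodes an interferon-induced protein. Usp18 (chr6:121245756-121245905, plus strand) removes ISG15 from its targets and dampens receptor signalling. Irf1 (chr11:53769864-53770013, plus strand) encodes a transcription factor of the pathway.
Isg15: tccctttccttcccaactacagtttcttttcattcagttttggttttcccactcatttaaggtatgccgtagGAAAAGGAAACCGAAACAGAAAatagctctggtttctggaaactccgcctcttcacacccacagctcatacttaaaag
Rtp4: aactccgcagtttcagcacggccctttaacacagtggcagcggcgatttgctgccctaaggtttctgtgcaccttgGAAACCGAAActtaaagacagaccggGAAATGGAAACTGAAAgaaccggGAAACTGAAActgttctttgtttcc
Usp18: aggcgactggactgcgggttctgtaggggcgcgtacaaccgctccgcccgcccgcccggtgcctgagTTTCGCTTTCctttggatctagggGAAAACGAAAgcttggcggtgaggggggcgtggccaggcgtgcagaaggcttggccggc
Irf1: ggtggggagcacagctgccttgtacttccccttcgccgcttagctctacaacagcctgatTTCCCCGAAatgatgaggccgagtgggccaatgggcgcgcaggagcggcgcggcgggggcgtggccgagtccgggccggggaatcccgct
The Isg15 promoter holds 3 overlapping cores and the Rtp4 promoter 4, of which a pair overlap, whereas the 2 cores of the Usp18 promoter lie on opposite strands.

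Nearly every gene of the list had open chromatin in both progenitors. In MPP3 cells 38 of 39 genes had at least 1 peak, Isg15 being the exception, and in MPP4 cells all 39 had one. The median gene had 2 peaks in either cell type. Adar, an RNA-editing enzyme, had 4 peaks in MPP3 and 5 in MPP4. The RNA sensor gene Ddx58 (RIG-I) and the ADP-ribosyltransferase gene Parp14 had 5 and 4. Ifih1 (MDA5, a sensor of long double-stranded RNA) and Oas3 (an oligoadenylate synthetase) had 5 and 3. In MPP4, 14 genes had a single peak, against 9 in MPP3. Peaks per gene were not counted over all genes, so none of these counts sets the list apart from other genes.

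Most of these peaks sat at transcript starts. A peak whose centre lay within 1 kb of a start of its gene is called a start peak here, and there were 52 among 95 peaks in MPP3 (54.7%, 95% Wilson interval 44.7 to 64.4) and 48 of 87 in MPP4 (55.2%, 44.7 to 65.2). Over all peaks the share was 26.3% in MPP3 and 26.6% in MPP4. All peaks here include those tied to no gene, which cannot be start peaks, whereas each peak of the list is tied to one. In MPP3 78081 of 87642 peaks were tied to a gene, and in MPP4 77626 of 86952. Values given below for all peaks away from starts include the untied ones too. The interval covers counting error only, and peaks of 1 gene are not independent. The other peaks of the list lay in introns (19 in MPP3 and 18 in MPP4), downstream (9 and 8), upstream (8 and 8) and in exons (7 and 5). A start peak within 1 kb was found for 35 of the 39 genes in MPP3 (89.7%) and 36 in MPP4 (92.3%), against 67.5% and 67.3% of 20807 autosomal protein-coding genes. Here a peak near the starts of 2 genes counts for both, as with Parp9 and Dtx3l. Ifi44, an interferon target, and Parp14 had no start peak in either cell type. Isg15 and Ifitm3 had none in MPP3, and Oasl1 had none in MPP4.

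**Figure D1:**
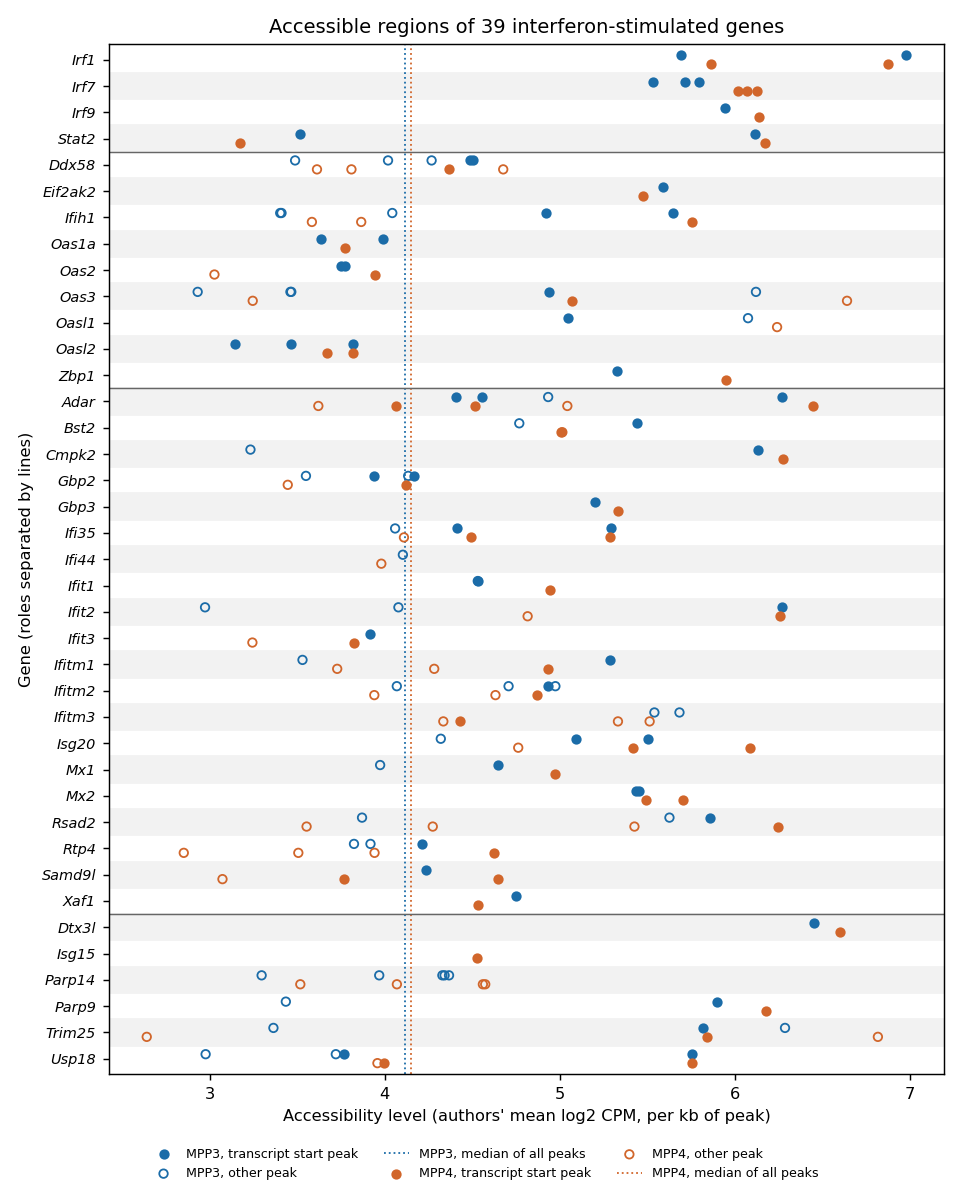
Level of each peak of the 39 interferon-stimulated genes (x axis, mean log2 CPM per kb of peak over the 4 libraries of a cell type) by gene (y axis, in 4 roles separated by lines). Filled points are transcript start peaks, open points are other peaks, blue is MPP3, orange is MPP4, and dotted lines are the medians of all peaks (4.11 in MPP3 and 4.15 in MPP4). The Irf1 start peak is the highest point in both cell types, and start peaks of Oas1a, Oas2 and Oasl2 lie on the left.

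The level of the list as a whole was close to that of other genes once the place of the peaks was taken into account. Its start peaks had a median of 5.07 log2 CPM per kb in MPP3 and 5.18 in MPP4, and all start peaks had 5.04 in both. Away from starts the medians were 4.04 and 3.98, against 3.92 and 3.92 for all such peaks. Taking for each gene the peak closest to a start, the median of the list was 5.29 in MPP3 and 5.18 in MPP4, below the medians of 5.47 and 5.39 over protein-coding genes. For Irf1, Adar, Usp18, Ddx58 and Gbp2 the closest peak was a different one in each cell type. Results on this measure therefore do not follow the same promoters throughout. Of the genes with such a peak, 13 of 35 in MPP3 and 16 of 36 in MPP4 lay above the median of coding genes. The promoters of the list were poorer in CpG than start peaks overall. Within the 300 bp window centred on the peak, start peaks of the list held a median of 6.5 CpG dinucleotides in MPP3 and 6 in MPP4, whereas all start peaks held 18 in both.

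The transcription factors included the most accessible promoter of the list, that of Irf1. The Irf1 peak just upstream of its start had a level of 6.98 log2 CPM per kb in MPP3 and 6.88 in MPP4, at the 97.7th and 97.4th percentiles of all peaks. A further peak downstream, near another annotated Irf1 start, stood at 5.69 and 5.87. Stat2, which supplies the activating subunit of ISGF3, had a start peak at 6.12 and 6.17 and a weak one at a start inside the gene, at 3.52 and 3.17. Irf9, the DNA-binding subunit of ISGF3, had 1 peak with levels of 5.95 and 6.14. Irf7, which amplifies interferon production, had 3 start peaks with levels of 5.53, 5.71 and 5.79 in MPP3 and 6.13, 6.07 and 6.02 in MPP4. Start peaks of this role had medians of 5.75 in MPP3 and 6.10 in MPP4, beside 5.82 and 5.80 for the genes of ubiquitin-like and ADP-ribose modification.

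The nucleic acid sensors had the lowest median of the 4 roles at start peaks, 4.49 in MPP3 and 4.37 in MPP4. Antiviral effectors had 5.01 and 4.95. With only the peak closest to a start of each gene, the MPP3 medians were 4.94 for sensors and 5.01 for effectors. The sensor promoters spanned a wide range. Ifih1 (5.65 in MPP3 and 5.76 in MPP4) and Eif2ak2, the kinase PKR that halts translation on sensing double-stranded RNA (5.59 and 5.48), were at the upper end. Zbp1, a sensor of Z-form nucleic acid, was at 5.33 and 5.95. Oas1a (3.99 and 3.77), Oas2 (3.77 and 3.95) and Oasl2 (3.82 and 3.82) were among the 5 lowest start peaks of the list that lay closest to a start in each cell type. Oas3 had a start peak at 4.94 and 5.07, and an intronic peak centred 1983 bp past its start in MPP3 and 1960 bp in MPP4, at 6.12 and 6.64, which was higher than its promoter in both. Oasl1 likewise had a strong peak upstream, centred at -1203 and -1191 bp from its start, at 6.08 and 6.24, while its start peak was listed in MPP3 alone, at 5.05. The Oas and Oasl genes are tandem paralogs, and reads that map equally well to more than 1 copy could be missing or misplaced.

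Among the antiviral effectors, the promoters of Ifit2, Cmpk2 and Rsad2 and an internal start of Adar were the most accessible in both cell types. Ifit2 had a start peak at 6.27 in MPP3 and 6.26 in MPP4. Its neighbours of the same family were lower, with Ifit1 at 4.53 and 4.95 and Ifit3 at 3.92 and 3.82. Rsad2 (viperin) and Cmpk2, adjacent genes that together make a chain-terminating nucleotide, had start peaks at 5.86 and 6.24 and at 6.13 and 6.27. Adar had its strongest peak at an internal start, 6.27 and 6.45, and weaker ones at the outer start, between 4.06 and 4.56. Bst2 (tetherin, which holds budding virus at the cell surface) stood at 5.44 and 5.01. Mx2 (a dynamin-like GTPase) had peaks at 5.44 and 5.45 in MPP3 and at 5.49 and 5.71 in MPP4, and Mx1 was at 4.65 and 4.97. The guanylate-binding protein gene Gbp3 was at 5.20 and 5.33. Ifi35, which forms cytoplasmic complexes, was at 5.29 in both. Isg20, an RNA exonuclease, had peaks at 5.10 and 5.42 at its start and at 5.50 and 6.09 upstream, centred at -910 and -906 bp.

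Of the other effectors, Rtp4 was at 4.21 and 4.62, Samd9l (an inhibitor of translation) at 4.24 and 4.65, and Xaf1 (a pro-apoptotic factor) at 4.75 and 4.53. The Ifitm genes encode membrane proteins that block viral entry and lie in 1 cluster on chromosome 7. Ifitm1 and Ifitm2 had start peaks at 5.29 and 4.93 in MPP3 and at 4.94 and 4.87 in MPP4. Ifitm3 had its highest levels downstream, at 5.68 and 5.54 in MPP3 and 5.51 and 5.33 in MPP4, and a start peak at 4.43 in MPP4 alone. Ifi44 had 1 intronic peak, at 4.10 and 3.98.

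The genes of ubiquitin-like and ADP-ribose modification spread widely, and the lowest peak of the list in MPP4 was an intronic one of Trim25, at 2.64. Dtx3l, an E3 ligase that works with PARP9, and Parp9 have neighbouring starts on opposite strands with overlapping 5′ ends, and a peak at the Parp9 start had levels of 5.90 and 6.18. A peak centred at -732 bp from the Dtx3l start in MPP3 and -737 bp in MPP4 stood at 6.45 and 6.60. Trim25, the ligase that acts on RIG-I, had a promoter peak at 5.82 and 5.84 and a downstream peak at 6.29 and 6.82, the highest of its gene. The main Usp18 promoter peak was at 5.76 in both. Isg15 had a single peak in MPP4, chr4:156200769-156200939, at 4.53 log2 CPM per kb, and none in MPP3.

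The ISRE core marked many of these promoters. Within the same 300 bp window it occurred in 19 of 52 start peaks of the list in MPP3 (36.5%, Wilson interval 24.8 to 50.1) and in 19 of 48 in MPP4 (39.6%, 27.0 to 53.7). It occurred in 2.92% of all 23073 start peaks in MPP3 and 3.31% of 23139 in MPP4. Among start peaks as poor in CpG as the median of the list, the shares were 4.93% and 5.88%. The longer form GAAANNGAAACT, on either strand and always containing a core, occurred in 14 (26.9%) and 11 (22.9%) start peaks of the list, against 0.377% and 0.393% of all. The same reading of RefSeq promoters, from 250 bases before to 50 after the start, found the core in 15 of the 31 listed genes with an entry (48.4%) and in 3.99% of 27025 genes. Since many of these genes are known for their ISRE, the shares describe where the letters lie in open chromatin and are no test of the list.

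**Figure D2:**
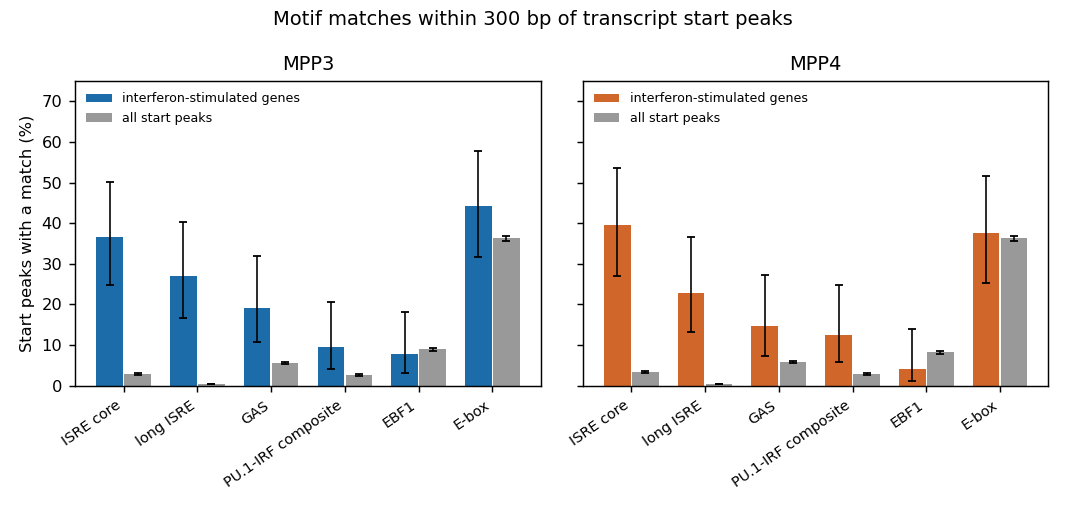
Share of transcript start peaks with at least 1 motif match within the 300 bp around the peak centre (y axis, percent) for 6 motifs (x axis) in MPP3 and MPP4. Coloured bars are the interferon-stimulated genes (52 and 48 peaks), grey bars all start peaks, and error bars are 95% Wilson intervals of counting error. The ISRE core stands at 36.5% and 39.6% for the list against 2.92% and 3.31% for all start peaks, and the E-box shares lie close together.

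Counted as sites over both cell types, the start peaks of 22 genes held 36 ISRE cores. Rtp4 and Zbp1 had 4 each, Isg15 had 3, and Bst2, Ifit1, Ifit3, Oas1a, Oasl2 and Usp18 had 2 each. The other genes with a core were Ddx58, Eif2ak2, Gbp2, Gbp3, Ifih1, Ifitm2, Irf7, Isg20, Mx2, Oas2, Oas3, Parp9 and Rsad2, with 1 each. Of the 36 sites, 33 lay upstream of the nearest annotated start, all within 200 bp, and 27 of them within 100 bp. The median position of the 36 was -60 bp from the start. The search covered only the 300 bp window of start peaks, which favours sites near a start. Positions were not measured over all start peaks. Exactly 18 sites read GAAANNGAAA on the strand of the gene, and the rest read it on the other strand. Promoters with further cores include those of Zbp1, Ifit1, Ifit3, Bst2, Oas2, Oas3, Mx2, Irf7 and Rsad2, shown on the strand of the gene with each core in capitals and 15 bases on each side. They are, in order, chr2:173218992-173219037 and chr2:173218944-173218989 (both minus), chr19:34640770-34640828 (plus), chr19:34583358-34583431 (plus), chr8:71537572-71537617 (minus), chr5:120749900-120749939 (minus), chr5:120777710-120777749 (minus), chr16:97535129-97535168 (plus), chr7:141266085-141266124 (minus) and chr12:26456548-26456587 (minus).
Zbp1 distal pair: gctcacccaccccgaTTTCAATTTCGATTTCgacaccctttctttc
Zbp1 proximal pair: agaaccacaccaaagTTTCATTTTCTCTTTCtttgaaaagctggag
Ifit1: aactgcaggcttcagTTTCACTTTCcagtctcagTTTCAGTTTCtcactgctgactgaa
Ifit3: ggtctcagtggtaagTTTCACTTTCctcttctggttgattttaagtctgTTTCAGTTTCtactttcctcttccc
Bst2: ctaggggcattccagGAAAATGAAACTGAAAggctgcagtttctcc
Oas2: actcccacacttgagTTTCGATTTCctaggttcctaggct
Oas3: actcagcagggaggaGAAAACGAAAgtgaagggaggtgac
Mx2: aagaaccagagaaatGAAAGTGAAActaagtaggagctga
Irf7: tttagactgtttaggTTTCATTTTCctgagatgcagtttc
Rsad2: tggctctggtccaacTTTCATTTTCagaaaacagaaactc
In Zbp1, Isg15, Rtp4, Bst2 and Oas1a, neighbouring cores overlap by sharing a GAAA, so that the repeat continues over more than 1 core.

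**Figure D3:**
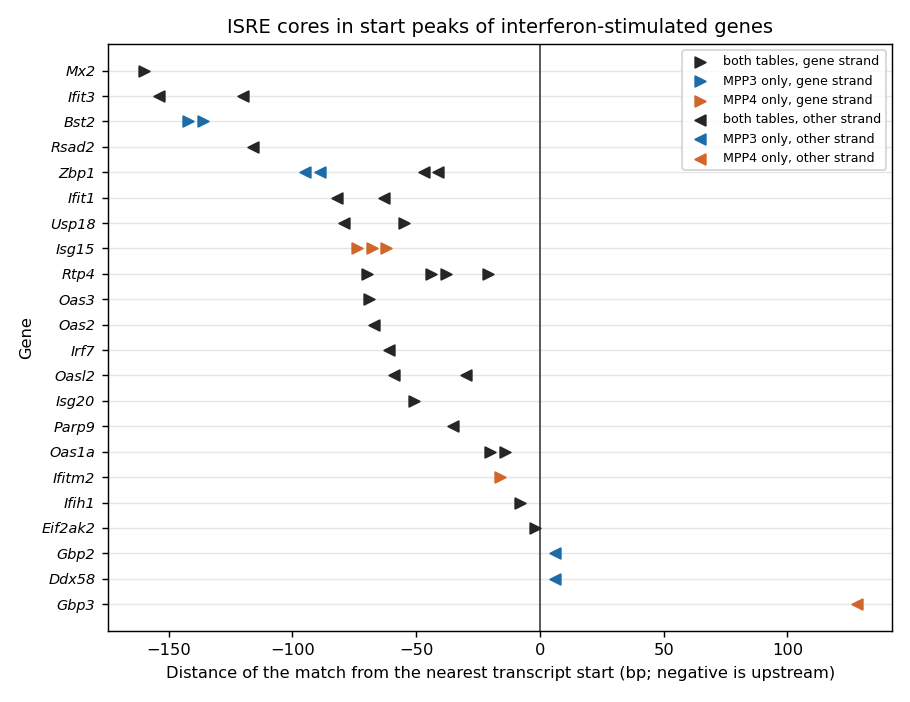
Distance of each of the 36 ISRE cores from the nearest annotated transcript start of its gene (x axis, bp, negative upstream) for the 22 genes that hold one (y axis). Arrowheads give the strand of the match, black marks sites in the searched window of both cell types, blue MPP3 alone and orange MPP4 alone. Apart from Gbp2, Ddx58 and Gbp3, whose sites lie 6, 6 and 128 bp downstream, the sites run from -160 to -2 bp.

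A site in the window of 1 cell type alone can reflect a shifted peak centre. Of 37 sites counted in whole peaks or windows, 31 lay inside the peak of both cell types and 6 in the peak of 1 alone. These 6 were the 3 sites of Isg15 and the proximal site of Ifit3 in MPP4, and the sites of Ddx58 and Gbp2 in MPP3. The Bst2 sites, for example, were in both peaks but in the MPP3 window alone, and the Stat2 peak held its core only outside the window, at -279 bp. Start peaks of the list with an ISRE core had a median level of 5.10 log2 CPM per kb in MPP3 and those without had 5.05, and in MPP4 the medians were 5.33 and 5.01. With 1 peak for each gene, the one closest to a start, the order turned, with medians of 5.02 with a core and 5.29 without in MPP3, and of 5.07 and 5.29 in MPP4. The promoters of Ifit2, Mx1, Xaf1, Ifi35, Irf1, Irf9, Cmpk2 and Samd9l held no exact core in the window, which says only that these letters are not there.

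The GAS occurred in 10 start peaks of the list in MPP3 (19.2%, interval 10.8 to 31.9) and 7 in MPP4 (14.6%, 7.2 to 27.2), against 5.63% and 5.84% of all start peaks. A composite of PU.1 and IRF sites, GGAANNGAAA, occurred in 5 (9.6%) and 6 (12.5%), against 2.66% and 2.81%. PU.1 is a myeloid and B-cell factor that recruits IRF4 and IRF8 to such sites. The EBF1 motif, TCCCNNGGG or its reverse complement CCCNNGGGA, occurred in 4 (7.7%) and 2 (4.2%) start peaks of the list, and in 8.95% and 8.21% of all. An E-box of the kind that E proteins bind, CAGGTG or CAGCTG, occurred in 44.2% and 37.5%, close to 36.3% and 36.2% of all start peaks. All motifs were read on both strands. Examples follow with the match in capitals, for the GAS of Oas1a (chr5:120907600-120907638, minus strand) and the EBF1 motif of Trim25 (chr11:88999329-88999367, plus strand).
Oas1a GAS: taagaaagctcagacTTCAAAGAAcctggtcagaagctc
Trim25 EBF1 motif: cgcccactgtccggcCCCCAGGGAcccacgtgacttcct
The composite of Parp9 overlaps its ISRE core. The binding of EBF1 or of any other factor at these letters was not tested.

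Away from transcript starts the ISRE core was rarer. It occurred in 4 of 43 such peaks of the list in MPP3 (9.3%, interval 3.7 to 21.6) and 4 of 39 in MPP4 (10.3%, 4.1 to 23.6), against 4.10% and 5.16% of all peaks away from starts. In both cell types these included a peak upstream of Rsad2 (-3823 bp in MPP3 and -3830 bp in MPP4), an intronic peak of Parp14 (2090 and 2105 bp from its start) and a peak near the end of an Ifit2 transcript. The fourth belonged to Usp18, upstream at -3903 bp in MPP4 and in an intron in MPP3, and neither had a counterpart in the other cell type. The Rsad2 peak (5.63 in MPP3 and 5.43 in MPP4) was the strongest of these. It and the Usp18 upstream peak are shown because they carry the elements outside a promoter, from chr12:26460217-26460287 (minus strand) and chr6:121241927-121241966 (plus strand).
Rsad2 upstream: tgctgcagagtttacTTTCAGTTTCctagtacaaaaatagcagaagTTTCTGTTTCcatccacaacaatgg
Usp18 upstream: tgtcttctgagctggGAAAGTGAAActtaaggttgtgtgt
The most accessible peaks away from starts, downstream of Trim25, within Oas3 and upstream of Oasl1, held no ISRE core in the window.

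Between the cell types, most peaks of the list recurred at the same place. A peak was matched when it overlapped a peak of the other table by at least 1 bp. In MPP3 76 of 95 (80.0%, Wilson interval 70.9 to 86.8) and in MPP4 75 of 87 peaks (86.2%, 77.4 to 91.9) were matched, against 75.7% and 76.7% of all peaks. For start peaks the shares were 86.5% and 93.8%, against 86.7% and 87.7% of all start peaks. The 19 unmatched peaks of MPP3 and 12 of MPP4 were weaker than the matched ones, with medians of 3.55 against 4.73 in MPP3 and 3.75 against 4.87 in MPP4.

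The unmatched start peaks were few. In MPP4 they were those of Isg15 (4.53), Ifitm3 (4.43) and an internal start of Samd9l (3.77). In MPP3 there were 7, at Ddx58 (4.51), Gbp2 (4.17), Oasl1 (5.05), Ifih1 (4.92), Oas1a (3.64), Oas2 (3.75) and Oasl2 (3.14). The last 4 accompanied another, matched start peak of the same gene, as did Ddx58 and Gbp2 with a peak 508 and 753 bp inside the gene. Whether the absence of a peak reflects the cells or the limit of peak detection was not tested.

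At matched peaks the levels of the list in MPP4, set against MPP3, lay above the median of the tables. Over 66324 matched peaks the MPP4 level minus the MPP3 level had a median of -0.015 log2 CPM per kb, and differences are given relative to it. The 76 matched peaks of the list had a median of 0.13, and 49 of them (64.5%) were above 0, against 50.0% of all by construction. Of its 45 matched start peaks 34 (75.6%) were above 0, with a median of 0.15, whereas 40.4% of all matched start peaks were above 0 and their median was -0.08. The 31 matched peaks away from starts had a median of -0.06, and 15 of them (48.4%) were above 0, against 54.1% of all such peaks with a median of 0.04. On the log2 CPM scale without division by length, the split narrowed to 44 of 76 (57.9%) above the median of all peaks, against 50.0% of all, and to 26 of 45 (57.8%) at starts, against 33.9% of all matched start peaks. Away from starts the direction turned on this scale, with 18 of 31 (58.1%) above the median of all peaks and a median of 0.17, against 56.9% and 0.10 for all such peaks. Of the 76 matched peaks, 23 had opposite signs on the 2 scales. The sizes were small beside the range over all matched peaks, whose middle 50.0% ran from -0.24 to 0.27.

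Single peaks at the ends of this distribution were as follows, as plain differences of MPP4 minus MPP3 in log2 CPM per kb. The largest positive differences were 0.75 at a peak 3355 bp downstream of the Ifitm1 start, 0.74 near the end of an Ifit2 transcript, 0.62 at the Zbp1 promoter, 0.60 at an Irf7 promoter peak and 0.59 upstream of Isg20. The Zbp1 peak was also higher in MPP4 without division by length, 5.19 against 4.29 log2 CPM. The other 4 also had higher log2 CPM in MPP4. That difference was 0.65 upstream of Isg20, 0.21 at Ifitm1, 0.15 at Ifit2 and 0.14 at Irf7. The Ifitm1, Ifit2 and Irf7 peaks were narrower in MPP4, so the size of their difference depends on the scale. The largest negative differences were -0.72 in an intron of Trim25, -0.69 downstream of Gbp2, -0.49 at the outer Adar start, -0.45 in an intron of Parp14 and -0.43 at the Bst2 promoter. Of these, the Trim25 peak lay at the 0.19th percentile of all peaks in MPP4 and overlapped its MPP3 match only in part. The Gbp2 and Adar peaks were wider in MPP4 and had higher log2 CPM there, so their sign depends on the scale. At Irf1 the signs also parted, with 0.17 per kb but -1.19 in log2 CPM for the downstream start peak, which was narrower in MPP4. Near-zero differences were found at the Ifit2, Usp18, Oasl2 and Ifi35 promoters, from -0.01 to 0.00.

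**Figure D4:**
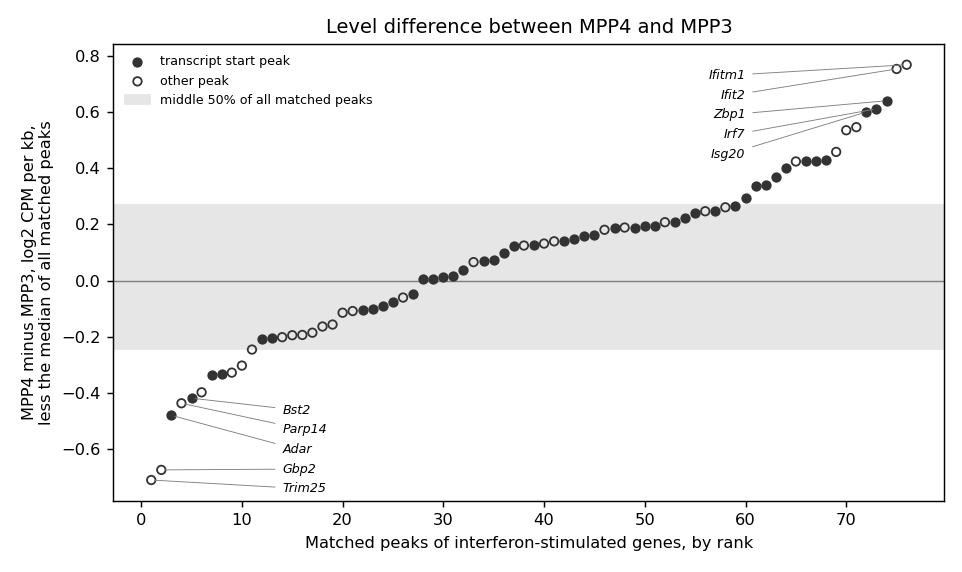
MPP4 minus MPP3 level of the 76 matched peaks of the list (y axis, log2 CPM per kb, less the median of all 66324 matched peaks), in order of rank (x axis). Filled points are transcript start peaks, open points are other peaks, the grey band is the middle 50.0% of all matched peaks (-0.24 to 0.27), and the 5 peaks at each end carry their gene's name. Of the 76 points 49 lie above 0, and 44 did so on the log2 CPM scale.

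The other genes of the pathway, 34 in all, had start peaks in 29 cases in MPP3 and 28 in MPP4, with median levels of 5.72 and 5.89. Of autosomal protein-coding genes 67.5% had one in MPP3, and the similar MPP4 share is given above. Among receptors, Ifnar1 (7.24 in MPP3 and 6.98 in MPP4) and Ifngr1 (the 95.4th and 94.1st percentiles of start peaks) were above the start peaks of every listed gene, and Ifnar2 was at 4.87 and 5.24. The kinase genes Tyk2 (6.68 and 6.49) and Jak2 (5.66 and 5.72) were accessible, and Jak1 had different closest start peaks in the tables (3.93 and 6.67). Other genes of this set also switched between start peaks in this way, among them Stat3 and Socs3. The adaptor gene Mavs, downstream of RIG-I and MDA5, was at 7.05 and 7.01, and the feedback inhibitor gene Socs1 at 7.11 and 7.13. Of 5 ligand genes, Ifnb1 alone had a peak within 1 kb of its start, at 3.31 and 3.17, near the bottom of the tables. An ISRE core occurred at the closest start peaks of Irf2 and Irf8 in both cell types and of Myd88 in MPP4. That makes 2 of 29 and 3 of 28. The closest Myd88 start peak was a different region in MPP3, so its core does not set the cell types apart. The same measure gave 18 of 35 and 17 of 36 for the listed genes, where Parp9 and Dtx3l share 1 peak and its core. Over protein-coding genes it gave 2.40% in MPP3. For MPP4 the nearest figure given is 3.31% of all start peaks, counted by peak and not by gene. Tlr7 lies on the X chromosome, and the tables hold the 19 autosomes alone.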

How the data were processed

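ATAC-seq reads were trimmed (cutadapt 2.10) and mapped to mm10 by the authors, who filtered alignments, identified peaks on merged libraries with MACS2 2.2.7.1 and ran edgeR 3.32.0 on peak counts. The 2 deposited tables, 1 for each cell type, give for each peak its position and the mean log2 CPM over both genotypes, which is the log2 unit used here. Their other columns hold the authors' own genotype comparison (fold change, F, p-value and adjusted p-value) and were not used, so no genotype effect is reported. Per-library counts were not used here.

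The positions were tied to GENCODE vM21 genes, levels were divided by peak length, and motifs were read in 300 bp around each peak centre of the GRCm38 genome (Python 3.11.15, pandas 2.3.3, samtools 1.23.1). A base position in the files counts from 0 at the start and is printed from 1. The steps were checked on made-up sequences and peaks with known answers. Of the 39 listed genes, 31 had a RefSeq promoter entry. Named genes were those with an ISRE core at a start peak, those with no peak or no start peak, the 5 highest and lowest start peaks of each table, the 5 genes with the most peaks and the 5 matched peaks with the largest difference in each direction, with every role covered. The members and lists were chosen with earlier results of these data known. Intervals printed with shares are 95% Wilson intervals and cover counting error only. The value of a further gene of the pathway is not reported here.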

Additional observations from a re-analysis of the deposited data

How the results depend on the processing

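Of the 30 alternative values computed for 11 results, 27 stayed within a set range of the value reported. For a count this meant within 1.5 times the value, and for a share within its exact binomial 95% interval. For a median level it meant within the range that an order-statistic interval over the members spans. That range is wide and treats members as if independent. Letting a peak count for any listed gene whose window held it, even with another gene closer, gave 173 peaks in MPP3 and 156 in MPP4 in place of 95 and 87, by construction. The longer ISRE was found at the closest start peak of 27.8% of genes in MPP4, against 47.2% for the core, since it asks for more letters. Choosing the strongest in place of the closest start peak, and counting each MPP4 peak once, were added after seeing the data. The median start peak level of the list less that of coding genes in MPP3, -0.18 log2 CPM per kb, became -0.33 without division by length and -0.30 with the strongest start peak, and the range given by its interval was -0.72 to 0.18. Samples could not be paired, because only levels pooled over the libraries of a cell type were used. Without values for each library, no mouse could be left out. The number of reads behind weak peaks is unknown, so a peak absent from 1 table may have been below detection, and merged libraries hide differences between mice.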
